A study of Mus musculus with 30 samples.

Results

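The 31 genes described here encode enzymes of cholesterol synthesis, the proteins that carry and process the sterol regulatory element binding proteins (SREBPs), 3 proteins that move sterols within the cell, and 2 SREBP target genes of fatty acid synthesis; together they are called the sterol genes here. They were taken by gene symbol from a table of read counts for each of 2 sorted bone marrow populations of C57BL/6 mice, hematopoietic stem cells (HSCs) and multipotent progenitors (MPPs). All 31 were found among the 55471 genes of each table, and all 31 held enough counts to be tested in both. Mice were given either phosphate-buffered saline (PBS) or MTP10-HDL, a high-density lipoprotein nanoparticle carrying a muramyl tripeptide, which is a bacterial cell wall fragment sensed by Nod2. The question was how each population responded to MTP10-HDL. HSCs gave 7 PBS and 6 MTP10-HDL libraries, and MPPs gave 2 PBS and 3 MTP10-HDL libraries. Each library was a pool of 4 mice, so p-values measure the spread between pools. The MPP mice received 3 injections within 5 days and were killed on the following day. For the HSC mice the schedule, and for all mice the age, was not given in the sources used here.

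Cholesterol is built from acetyl-CoA by way of mevalonate, isoprenoid pyrophosphates, squalene and lanosterol. When sterols in the endoplasmic reticulum are scarce, Scap escorts SREBP2 to the Golgi, where proteases release its transcription factor domain. That domain switches on most genes of the pathway, whereas Insig proteins hold Scap and SREBP back when sterols are plentiful. The mevalonate branch is known in innate immunity because mevalonate promotes training of monocytes, and sterol handling is known to influence the proliferation of hematopoietic stem and progenitor cells.

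Library totals were 4064155 to 7879858 counts in HSCs and 11252479 to 32769369 in MPPs. All 8 HSC markers and all 5 MPP markers were detected in every library of both tables. The HSC libraries fell into 3 technical groups that treatment did not define. PBS 1 and 4 and MTP10-HDL 2 and 3 had few detected genes (24233 to 27528). PBS 2 and 3 and MTP10-HDL 1 and 4 had the highest nuclear ribosomal RNA shares of the remaining libraries (0.813% to 1.26%). The other 5 libraries were PBS 5, 6 and 7 and MTP10-HDL 5 and 6. Among MPP libraries MTP10-HDL 2 stood apart, since 59.2% of all genes tested had their highest or lowest level there, against 22% to 45.3% in each of the other 4. Of the 31 sterol genes, 21 had their highest or lowest level in that library. For the 31 genes in MPPs, counts by sign, the median and the genes that turned are given also without it. Counts of groups lying apart and of intervals are given with all libraries only.

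RefSeq promoter windows were matched for 25 of the 31 genes, on build GRCm38.p6, and the 250 bases before each annotated start were searched on both strands for 3 motifs. The first was CCAAT, the letters bound by NF-Y, a partner factor of SREBPs. On the opposite strand it reads ATTGG. The second was CACGTG, an E-box. The third was TCACNCCAC, a form of the sterol regulatory element. No match overlapped another in the windows printed here. The NF-Y motif was present for 21 of 25 genes (84%), against 37.5% of all 27025 genes with a window and 39.8% of those tested in HSCs or MPPs. The E-box was present for 5 of the 25 genes (20%; Hsd17b7, Sc5d, Dhcr7, Scap and Insig1), against 6.86% of all genes with a window and 9.35% of those tested in HSCs or MPPs. The sterol regulatory element was found for Hmgcs1 alone, or 4% of the 25, against 1.22% of all genes with a window and 1.23% of those tested in HSCs or MPPs. The 5 windows are shown because they cover the genes whose levels are described most closely below, or, for Hmgcs1, the match to the sterol regulatory element. They lie at chr5:28071162-28071411 (plus strand), chr15:82147019-82147268 (plus strand), chr13:119690101-119690350 (plus strand), chr3:89454291-89454540 (plus strand) and chrX:8193513-8193762 (minus strand); each is written from 5′ to 3′ on the gene's own strand, with motif matches in capitals. A match describes the letters only.
Insig1: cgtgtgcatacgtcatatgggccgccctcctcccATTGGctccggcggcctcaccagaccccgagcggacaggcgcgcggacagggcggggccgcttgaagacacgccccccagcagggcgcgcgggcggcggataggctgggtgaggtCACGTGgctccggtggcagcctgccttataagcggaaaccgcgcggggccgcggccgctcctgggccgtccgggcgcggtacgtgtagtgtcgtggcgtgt
Srebf2: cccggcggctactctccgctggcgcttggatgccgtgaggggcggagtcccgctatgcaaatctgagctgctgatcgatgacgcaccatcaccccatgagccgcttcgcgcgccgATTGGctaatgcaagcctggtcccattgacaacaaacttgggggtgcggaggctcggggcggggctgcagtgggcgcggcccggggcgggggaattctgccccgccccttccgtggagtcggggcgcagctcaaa
Hmgcs1: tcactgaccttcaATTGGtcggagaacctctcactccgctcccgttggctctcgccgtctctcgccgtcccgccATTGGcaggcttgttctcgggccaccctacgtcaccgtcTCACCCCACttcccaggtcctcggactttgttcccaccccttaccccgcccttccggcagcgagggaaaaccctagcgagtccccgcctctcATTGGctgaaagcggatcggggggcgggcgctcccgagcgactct
Pmvk: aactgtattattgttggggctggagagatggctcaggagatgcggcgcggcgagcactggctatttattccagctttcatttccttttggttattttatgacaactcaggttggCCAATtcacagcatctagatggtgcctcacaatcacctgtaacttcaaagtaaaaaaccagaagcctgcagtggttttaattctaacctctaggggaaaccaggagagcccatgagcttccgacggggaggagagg
Ebp: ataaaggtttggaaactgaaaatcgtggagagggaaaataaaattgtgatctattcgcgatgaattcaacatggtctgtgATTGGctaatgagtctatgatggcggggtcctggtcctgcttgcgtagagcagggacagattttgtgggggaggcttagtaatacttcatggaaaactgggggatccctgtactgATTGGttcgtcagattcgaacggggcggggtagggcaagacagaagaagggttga
Fdps, Fdft1, Sqle, Stard4, Npc1 and Scd2 were not matched to a window.

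In HSCs, none of the 31 genes passed the test between MTP10-HDL and PBS. By edgeR's quasi-likelihood test with Benjamini-Hochberg adjustment over 16631 genes, no gene of the whole table passed at 0.05 (0% called), with 1469 genes (8.83%) at an unadjusted p under 0.05. DESeq2 called 92 genes (0.553%) and limma voom called none, and neither called any of the 31. At an unadjusted p under 0.05, 2 of the 31 genes were higher with MTP10-HDL and 0 were lower, where 4.36% of all genes were higher and 4.47% lower. By sign alone 16 were higher and 15 lower, where 47.7% of all genes were higher. The median log2 fold change was 0.03, and -0.02 over all genes tested. The 95% interval lay within 1 log2 unit of 0 for 24 of the 31 (54.8% of all genes), so a larger shift was outside the interval for those 24. The exceptions were Pmvk, Mvd, Idi1, Fdps, Tm7sf2, Hsd17b7 and Ebp. For none of the 31 did the 2 groups of HSC libraries lie apart; over all genes 0.174% lay apart as higher and 0.168% as lower.

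**Figure D1:**
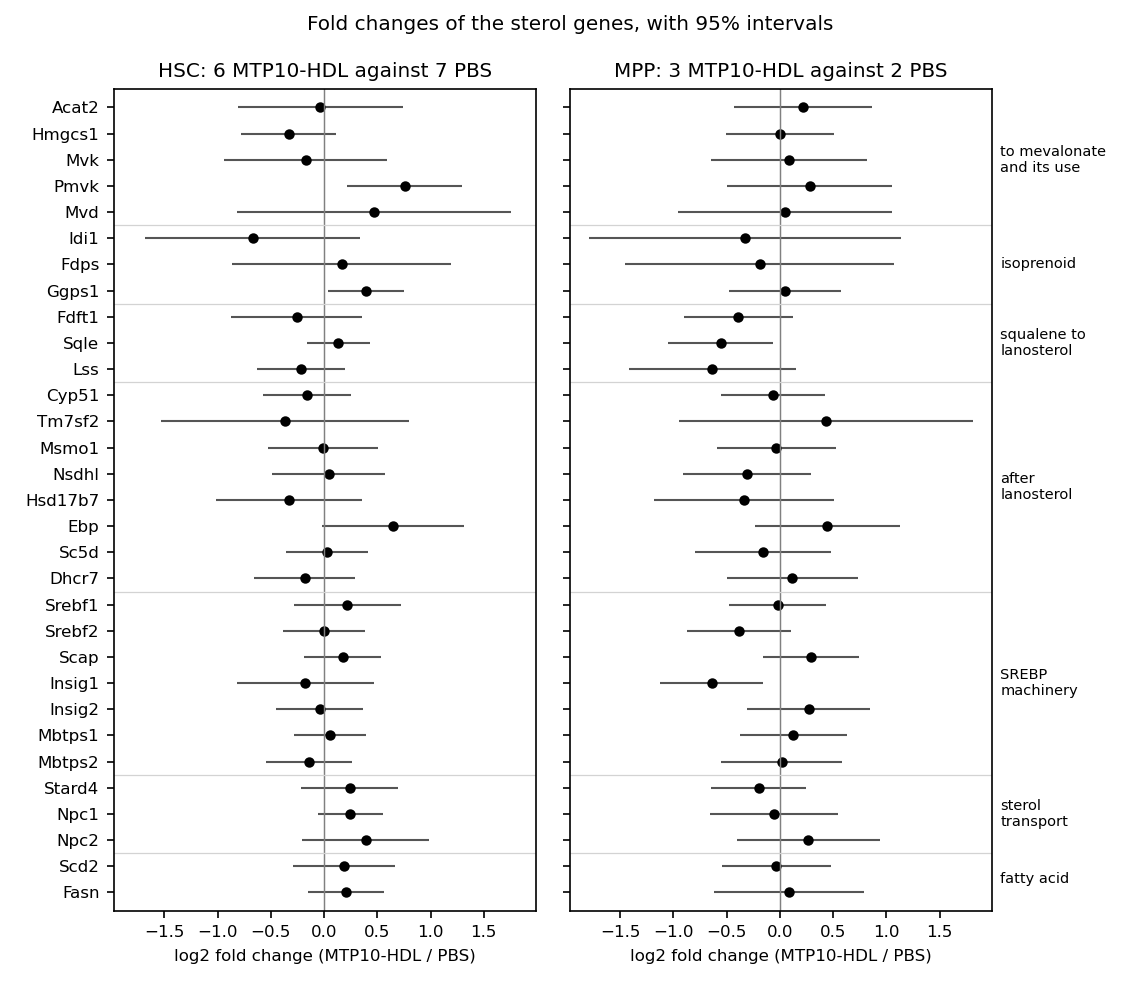
Log2 fold change (MTP10-HDL over PBS) of each of the 31 genes in HSCs (left) and MPPs (right), with bars for the 95% interval and genes ordered by role. In HSCs the intervals of Pmvk and Ggps1 lie above 0, and in MPPs those of Insig1 and Sqle lie below 0, all before adjustment for the number of genes tested.

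Of the 5 enzymes that make or use mevalonate, Pmvk, which adds the second phosphate to mevalonate, had the smallest p of all 31 genes in HSCs. Its level was 7.14 CPM (counts after scaling every library to one common total) in the lowest PBS library, 10.4 at the median and 14.3 in the highest, against 8.90, 16.7 and 26.1 with MTP10-HDL. All MTP10-HDL libraries but number 3 lay above the highest PBS library. The log2 fold change was 0.76 (SE 0.26, 95% interval 0.22 to 1.30, adjusted p = 0.428), so the call was not made. Hmgcs1, the synthase that forms HMG-CoA, ran from 13.3 to 27.6 CPM with a median of 21.2 in PBS, and from 13.1 to 21.5 with a median of 16.4 with MTP10-HDL. The ranges overlapped, and the 3 highest libraries were PBS 2, 3 and 4. Its log2 fold change was -0.33 (SE 0.21, adjusted p = 0.653). Acat2, Mvk and Mvd, the other members of this group, had PBS medians of 15.9, 5.28 and 2.76 CPM and MTP10-HDL medians of 22.4, 6.01 and 2.76 CPM.

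Among the isoprenoid enzymes, Ggps1, which makes the geranylgeranyl pyrophosphate used to prenylate small GTPases, was at 27.2, 40.8 and 46.8 CPM (lowest, median and highest) in PBS and at 35.9, 50.3 and 63.7 CPM with MTP10-HDL. MTP10-HDL 2, 3 and 5 lay above every PBS library, and the others lay among them. Its log2 fold change was 0.39 (SE 0.17, adjusted p = 0.540). Idi1, the isopentenyl diphosphate isomerase, was counted thinly, with 5 to 32 reads per library. Its level was 0.804, 2.20 and 4.02 CPM in PBS and 0.733, 1.51 and 2.31 CPM with MTP10-HDL. The log2 fold change of -0.67 had an SE of 0.48 (adjusted p = 0.680), and the ranges overlapped. Fdps, the farnesyl pyrophosphate synthase, had medians of 2.44 CPM in PBS and 2.99 CPM with MTP10-HDL.

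The 3 enzymes that lead from farnesyl pyrophosphate to lanosterol did not separate the HSC groups. Sqle, the squalene epoxidase, ran from 31.7 to 44.8 CPM in PBS and from 33.8 to 46.9 CPM with MTP10-HDL. Fdft1 (squalene synthase) had medians of 14.3 and 12.3 CPM, and Lss (lanosterol synthase) 27.2 and 21.9 CPM, in PBS and MTP10-HDL respectively. Of the 8 enzymes after lanosterol, Ebp, the sterol isomerase that shifts a ring double bond, had the smallest p. Its level was 5.40, 8.37 and 18.8 CPM in PBS and 8.56, 15.0 and 22.2 CPM with MTP10-HDL. All 6 MTP10-HDL libraries were above the PBS median, but PBS 1, at 18.8 CPM, exceeded all of them except MTP10-HDL 2. The log2 fold change was 0.65 (SE 0.31, adjusted p = 0.574). The remaining 7 ranged in log2 fold change from -0.37 for Tm7sf2, a sterol reductase read in as few as 4 counts in a library, to 0.04 for Nsdhl, which acts in the removal of the C4 methyl groups.

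In the SREBP machinery, the 7 genes had log2 fold changes between -0.18 and 0.22 in HSCs, and all 7 intervals lay within 1 log2 unit of 0. Srebf2, which encodes SREBP2, had a median of 157 CPM in PBS (range 90.7 to 224) and of 149 CPM with MTP10-HDL (range 135 to 170). Its log2 fold change was -0.00 with an interval of -0.39 to 0.39. The PBS libraries thus spanned the whole MTP10-HDL range and extended beyond it at both ends. Among the proteins that move sterols, Npc1, which exports cholesterol from late endosomes and lysosomes, was at 50.3, 65.3 and 78.6 CPM in PBS and 56.8, 81.9 and 95.8 CPM with MTP10-HDL. Its log2 fold change was 0.25 (SE 0.15, adjusted p = 0.624), and MTP10-HDL 1, 3 and 5 lay above every PBS library. Stard4, a cytosolic sterol carrier, had medians of 77.5 and 98.3 CPM, and overlapped widely. The fatty acid genes Fasn (fatty acid synthase) and Scd2 (a stearoyl-CoA desaturase) had PBS medians of 114 and 233 CPM and MTP10-HDL medians of 121 and 275 CPM.

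Markers of other cell types were summed in the same HSC libraries. The 10 erythroblast markers summed to 115 to 440 CPM in PBS and to 57.6 to 123 CPM with MTP10-HDL, with 0 of 9 tested markers higher and 8 of 10 detected in every library. Their median log2 fold change was -1.32, and 7 of the 9 had an unadjusted p under 0.05. The 8 B cell markers summed to 36.3 to 390 CPM and to 39.1 to 95.6 CPM, with 0 of 7 tested higher and 7 of 8 detected in every library. Their median was -1.56, and 5 of the 7 had an unadjusted p under 0.05. Over all genes 4.47% were lower at that threshold. The 9 neutrophil markers summed to 89.6 to 3470 CPM in PBS and to 552 to 5023 CPM with MTP10-HDL. All 9 were detected in every library, and 9 of 9 had a higher level with MTP10-HDL, at a median log2 fold change of 0.87 and with 0 at an unadjusted p under 0.05. The summed levels of the 3 lists overlapped between the groups. For the erythroblast markers the overlap rested on PBS 4, at 115 CPM, and MTP10-HDL 4, at 123 CPM. Apart from cell type markers, of 14 interferon response genes, 14 were higher with MTP10-HDL, with a median log2 fold change of 0.89 and 10 at an unadjusted p under 0.05. No marker of these lists was at 0 in every library. The part of these levels in those of the sterol genes was not tested. In pooled cells, fewer cells of a type and less RNA per cell cannot be told apart.

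The sterol genes of HSCs lay mostly above 0 in 1 of the 3 technical groups of libraries and were nearer an even split in the other 2. In the libraries with few detected genes, 18 of the 31 were lower with MTP10-HDL, with a median difference in mean log2 CPM of -0.08. In those with high ribosomal RNA, 19 were lower, with a median of -0.11. In the other 5 libraries 25 were higher, with a median of 0.33. Over all genes tested the 3 medians were -0.01, 0.00 and -0.01, and 49.1%, 50.4% and 49.4% of genes were higher. The treated and control libraries in each group numbered 2 and 2, 2 and 2, and 2 and 3, so no within-group test was made. Pmvk (0.29, 0.94 and 0.83 in the 3 groups, in the order above), Ebp (0.55, 0.97 and 0.46), Mvd, Fdps, Scap and Npc1 were higher within each group. Idi1 and Dhcr7, the reductase of the last step to cholesterol, were lower within each group. Over all genes tested, 15.5% were higher within each group and 16.1% lower. The other 23 of the 31 did not keep one sign. Among them was Insig1, the sterol-regulated anchor of Scap, whose differences were -0.32, -0.70 and 0.66.

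**Figure D2:**
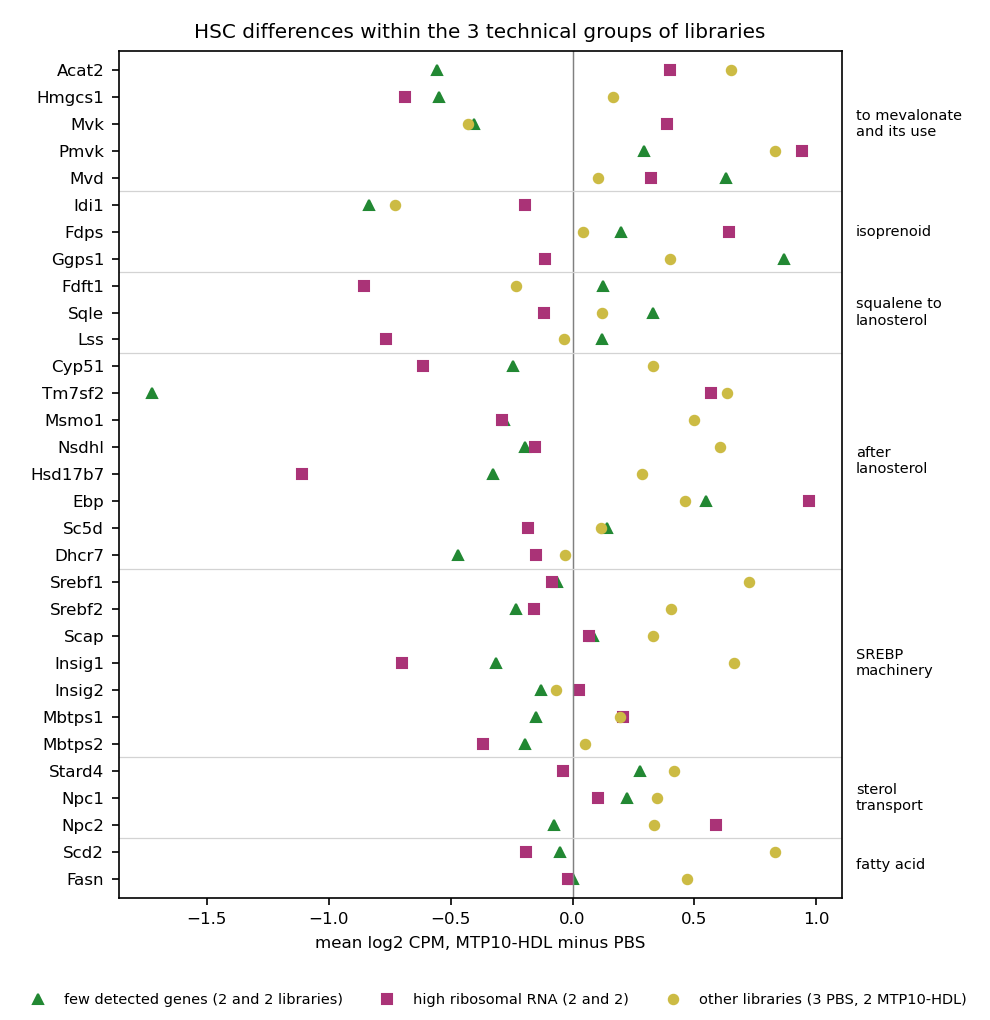
Difference in mean log2 CPM (MTP10-HDL minus PBS) of the 31 genes within each of the 3 technical groups of HSC libraries, 1 symbol per group. The circles of the 5 other libraries lie right of 0 for 25 genes, whereas the triangles and squares lie left of 0 for 18 and 19 genes.

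The sign in that last group went with low levels in its 3 PBS libraries. Centred on each gene's mean over the 13 libraries, the median of the 31 genes was -0.31, -0.26 and -0.28 in PBS 5, 6 and 7, with 5, 10 and 7 of the 31 above their mean. Over all genes tested, 51.8% to 53.5% were above their mean in the same libraries. In PBS 2 and PBS 4 the medians were 0.25 and 0.25, with 24 and 21 of the 31 above. The 6 MTP10-HDL medians lay between those extremes, at -0.10 to 0.20. Insig1 showed the pattern gene by gene. It was at 19.2, 41.5, 31, 36.6, 11.9, 8.68 and 18.9 CPM in PBS 1 to 7 and at 22, 18.5, 24.4, 22, 17.5 and 22.9 CPM in MTP10-HDL 1 to 6. The MTP10-HDL libraries were thus packed into the middle of the PBS range. PBS 5 and PBS 7 also had the lowest totals of the 13 libraries (4215378 and 4064155 counts), whereas PBS 6 had 6126772 counts. The part of depth in these levels was not tested.

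The spread between PBS libraries was wider than that between MTP10-HDL libraries for several members. The standard deviation of log2 CPM was 0.83 in PBS and 0.18 with MTP10-HDL for Insig1, 0.47 and 0.12 for Srebf2, 0.61 and 0.19 for Scd2, and 0.63 and 0.06 for Nsdhl. These 4 genes were picked after their values were seen. Over the whole set, 19 of 31 (61.3%) were wider in PBS, against 57.0% of all genes tested, so the set as a whole was near the background. With PBS 1 to 4 as the only PBS libraries, 18 of 31 (58.1%) were wider in PBS, against 50.7% of all genes tested.

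**Figure D3:**
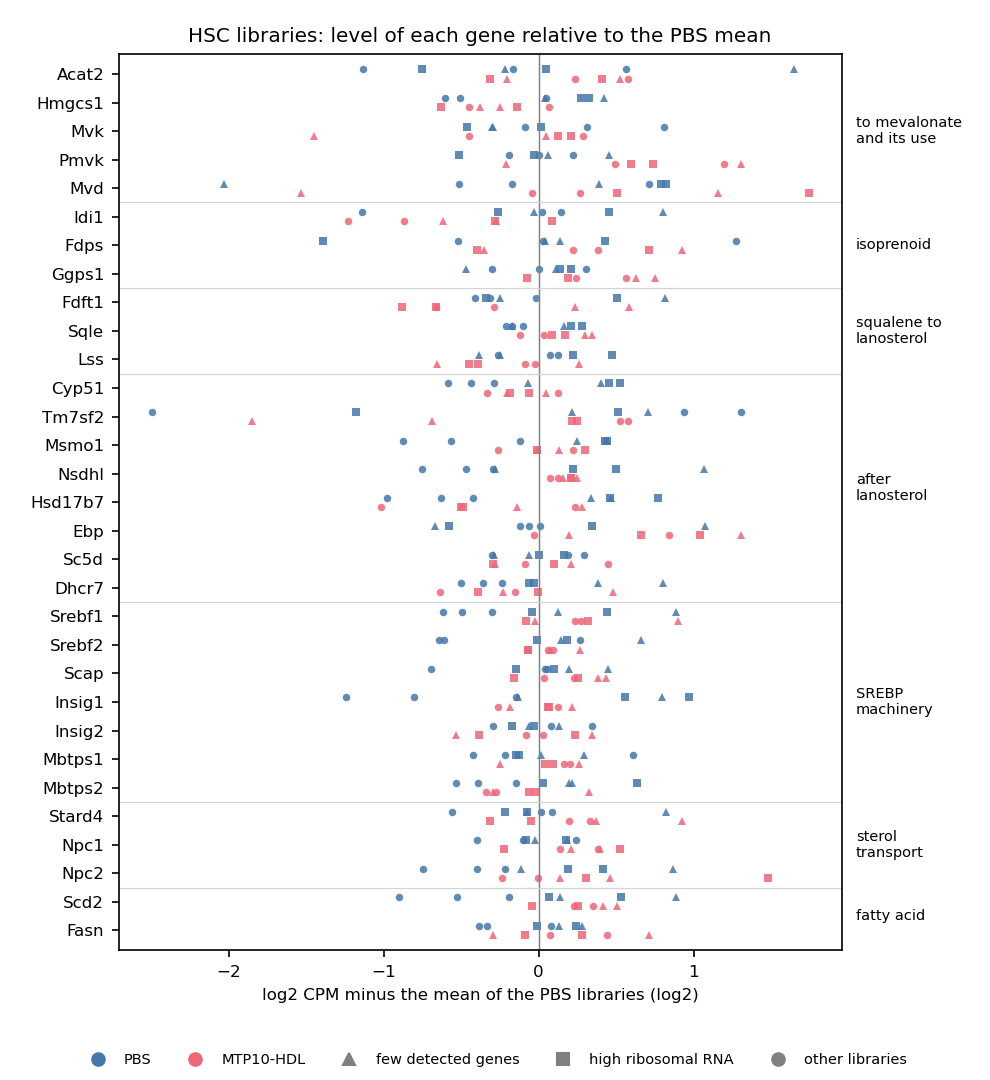
Log2 CPM of the 31 genes in the 13 HSC libraries, each relative to the mean of the PBS libraries; blue is PBS, red is MTP10-HDL, and shapes give the technical group. Blue and red points overlap for every gene, and for Insig1, Srebf2, Scd2 and Nsdhl the red points are gathered within the range of the blue ones.

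Npc2, the soluble lysosomal protein that hands cholesterol to Npc1, was looked at more closely after its values were seen, because its difference moved with single libraries. It was at 166, 122, 104, 83.9, 68.8, 78.3 and 54.2 CPM in PBS 1 to 7 and at 255, 125, 100, 112, 77.1 and 90.8 CPM in MTP10-HDL 1 to 6. MTP10-HDL 1 and PBS 1 were the 2 highest. The log2 fold change was 0.39 (SE 0.28, adjusted p = 0.682), and it was 0.07 without MTP10-HDL 1 and 0.59 without PBS 1. The same 2 libraries had the highest sums of the 9 monocyte and macrophage markers, at 2478 and 1668 CPM, while the other 11 libraries held 140 to 980 CPM. All 9 markers were detected in every library. Macrophages are rich in Npc2, and the part of such cells in its level was not tested.

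**Figure D4:**
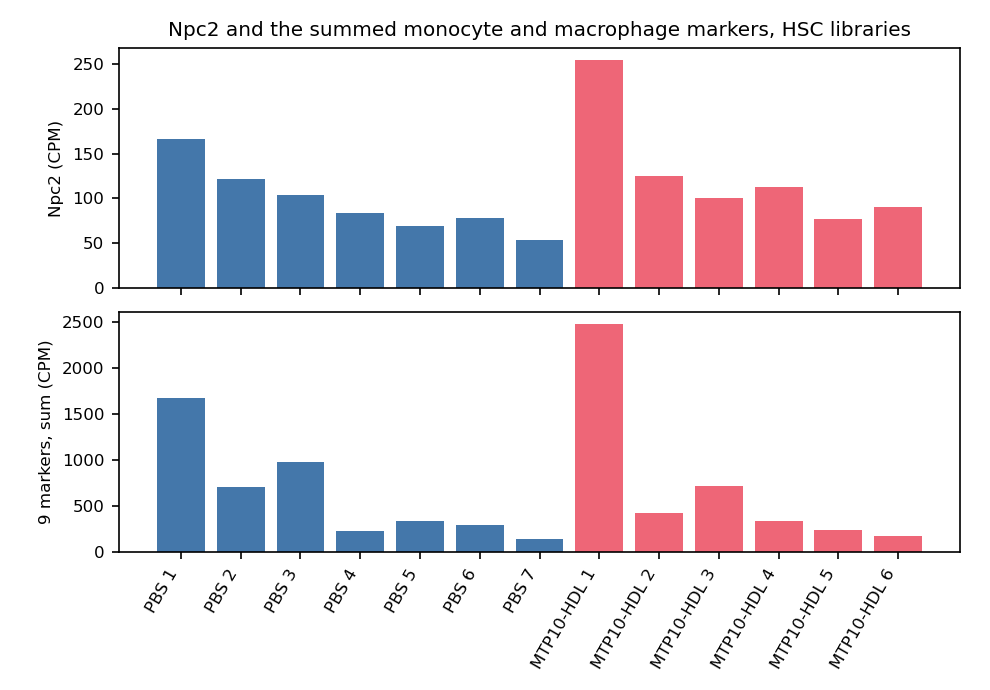
Npc2 (upper bars, CPM) and the summed CPM of 9 monocyte and macrophage markers (lower bars) in each HSC library, blue for PBS and red for MTP10-HDL. MTP10-HDL 1 is highest in both, at 255 and 2478 CPM, followed by PBS 1 at 166 and 1668 CPM.

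In MPPs, too, none of the 31 genes passed the test. Over 15449 genes edgeR's test called none (0% called), with 963 (6.23%) at an unadjusted p under 0.05, while DESeq2 called 180 (1.17%) and limma voom none; neither called a sterol gene. At an unadjusted p under 0.05, 2 of the 31 were lower with MTP10-HDL, where 4.06% of all genes were, and 0 were higher, where 2.17% of all genes were. By sign 15 were higher and 16 lower, where 52% of all genes were higher. Their median log2 fold change was -0.02, and 0.02 over all genes. Without MTP10-HDL 2 the log2 fold change of 8 of the 31 turned sign (Hmgcs1, Mvk, Pmvk, Mvd and Tm7sf2 to below 0, and Idi1, Npc1 and Scd2 to above 0). Then 13 were higher and 18 lower, where 49.2% of all genes were higher, and the median was -0.04. The libraries of the 2 groups lay apart for 2 genes as higher (Ebp and Scap) and for 8 as lower (Fdft1, Sqle, Lss, Nsdhl, Hsd17b7, Srebf2, Insig1 and Stard4). Over all genes tested 12% lay apart as higher and 12.3% as lower. The 95% interval lay within 1 log2 unit of 0 for 21 of the 31, against 45.7% of all genes.

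The lowest p in MPPs belonged to Insig1. Its level was 39.5 and 37.4 CPM in PBS 2 and 3 and 27.8, 23.3 and 22.8 CPM in MTP10-HDL 1, 2 and 3, so every MTP10-HDL library lay below both PBS libraries. The log2 fold change was -0.64 (SE 0.21, 95% interval -1.13 to -0.16, adjusted p = 0.670). It was -0.60 without MTP10-HDL 2. Srebf2, the gene of the factor that Insig1 restrains, was at 224 and 223 CPM in PBS and at 172, 144 and 199 CPM with MTP10-HDL. These groups lay apart as well, with a log2 fold change of -0.38 (SE 0.21, adjusted p = 0.844), or -0.27 without MTP10-HDL 2. The other 5 genes of the machinery did not go the same way. Scap, the escort, was at 67.3 and 59.3 CPM in PBS and at 75.9, 82.5 and 74.1 CPM with MTP10-HDL, and the ranges of Srebf1, Insig2 and the protease genes Mbtps1 and Mbtps2 overlapped.

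The 3 enzymes between farnesyl pyrophosphate and lanosterol were all at lower levels in each MTP10-HDL library than in either PBS library. Sqle was at 38.6 and 35.4 CPM in PBS and at 28.5, 23.4 and 23.6 CPM with MTP10-HDL, with a log2 fold change of -0.56 (SE 0.21, adjusted p = 0.748). This was the other gene with an unadjusted p under 0.05. Lss was at 21.2 and 21.5 CPM and at 16.1, 8.38 and 16.8 CPM, with a log2 fold change of -0.63 (SE 0.34, adjusted p = 0.834). MTP10-HDL 2 held the lowest Lss level, and without it the value was -0.38. Fdft1 was at 24.4 CPM in both PBS libraries and at 16.9, 18.7 and 20.4 CPM with MTP10-HDL, with a log2 fold change of -0.39 (SE 0.22, adjusted p = 0.854).

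Of the enzymes before and after, only Hsd17b7 and Nsdhl shared that order. The 5 mevalonate genes had positive log2 fold changes with a median of 0.08, and all 5 ranges overlapped. Without MTP10-HDL 2, 1 of the 5 was higher (Acat2, at 0.06) and the median was -0.04. Hmgcs1, for example, was at 42.2 and 45.7 CPM in PBS and at 36.5, 46.2 and 49.4 CPM with MTP10-HDL. Pmvk, the gene of smallest p in HSCs, was at 22.6 and 20.9 CPM in PBS and at 20.2, 38.6 and 20.4 CPM with MTP10-HDL, so MTP10-HDL 2 alone was high. Its log2 fold change was 0.28, and -0.10 without that library, and that of Mvd, the decarboxylase of the next step, was 0.05 and -0.14. Ebp lay apart as higher, at 39.1 and 46.9 CPM in PBS and at 47.2, 80.6 and 47.8 CPM with MTP10-HDL. MTP10-HDL 1 and 3 were within 1 CPM of the higher PBS library; the log2 fold change was 0.45 (SE 0.29, adjusted p = 0.875), and 0.14 without MTP10-HDL 2. Of the other 7 enzymes after lanosterol, Hsd17b7, a keto-sterol reductase, was at 5.85 and 6.19 CPM and at 4.75, 4.86 and 4.68 CPM. Nsdhl was at 28.2 and 23.9 CPM and at 23.3, 16.1 and 23.8 CPM, with a log2 fold change of -0.31, or -0.15 without MTP10-HDL 2. Both lay apart as lower, Nsdhl by less than 1 CPM. Cyp51, the demethylase of lanosterol, overlapped, at 44.6 and 48.3 CPM in PBS and 47.7, 47.4 and 37.8 CPM with MTP10-HDL.

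Stard4 was at 79.7 and 93.5 CPM in MPP PBS libraries and at 75.7, 71.6 and 78.7 CPM with MTP10-HDL, and so lay apart by 1 CPM. Npc2 was at 157 and 225 CPM and at 192, 305 and 193 CPM, and Npc1 at 59.7 and 51.5 CPM and at 63.7, 39.0 and 58.3 CPM. In both, the MTP10-HDL libraries reached past the PBS pair, with MTP10-HDL 2 the farthest out. Without it the log2 fold change of Npc2 went from 0.27 to 0.01 and that of Npc1 from -0.05 to 0.13. The isoprenoid genes Idi1, Fdps and Ggps1 and the fatty acid genes Fasn and Scd2 overlapped between groups.

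**Figure D5:**
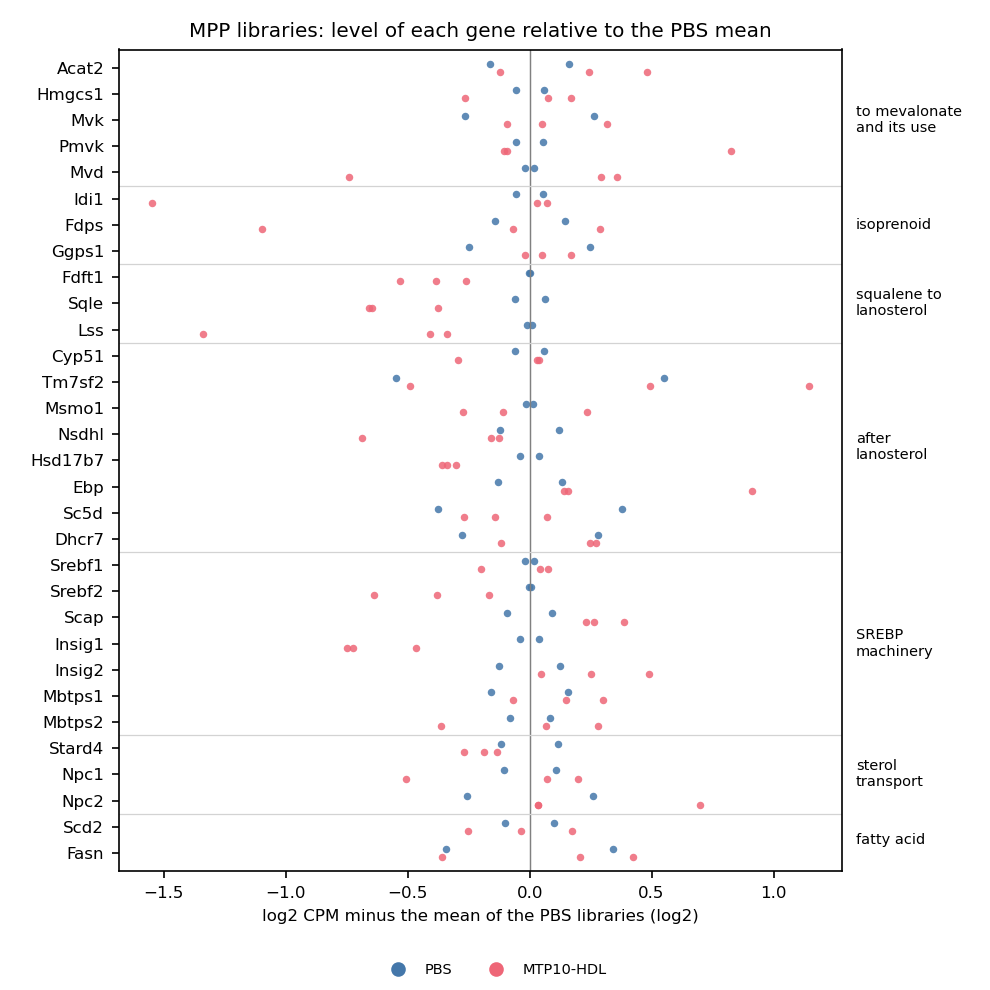
Log2 CPM of the 31 genes in the 5 MPP libraries, each relative to the mean of the PBS libraries (blue PBS, red MTP10-HDL). The 3 red points lie left of both blue points for 8 genes, among them Fdft1, Sqle, Lss, Srebf2 and Insig1, and right of both for Ebp and Scap.

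The MPP groups also lay apart in several marker sums, alongside Insig1, Srebf2 and the squalene enzymes. The 8 HSC markers summed to 1477 to 1664 CPM in PBS and 910 to 1133 CPM with MTP10-HDL, and 0 of 8 were higher, at a median log2 fold change of -0.90. The 5 MPP markers summed to 2199 to 2662 CPM and 2945 to 3164 CPM, with 4 of 5 higher. Kit, which is in both of these lists, was lower, at a log2 fold change of -0.44. The 9 monocyte and macrophage markers summed to 354 to 392 CPM and 201 to 269 CPM, with 3 of 9 higher. The 10 erythroblast markers summed to 63.4 to 98.6 CPM and 20.0 to 41.9 CPM, with 1 of 9 tested higher. The T and NK cell markers summed to 44.2 to 48.3 CPM and 52.4 to 89.9 CPM, with 5 of 6 tested higher. The stroma and endothelium markers summed to 93.4 to 103 CPM and 105 to 136 CPM, with 1 of 5 tested higher. The B cell and neutrophil sums overlapped. No marker of these lists was at 0 in every library. All 14 cell cycle genes were higher with MTP10-HDL, with a median log2 fold change of 0.49 and 7 at an unadjusted p under 0.05. In HSCs 13 of these 14 were higher, with a median of 0.16 and 3 at that threshold. Of the 14 interferon response genes, 11 were higher in MPPs, with a median of 0.24 and 3 at that threshold. Over all genes tested in MPPs, 52% were higher, and 2.17% were higher at that threshold. By library levels, 12% of all genes lay apart as higher and 12.3% as lower. Nuclear ribosomal RNA took 1.26% to 1.47% of PBS counts and 0.508% to 0.915% of MTP10-HDL counts, immunoglobulin genes took 6.20% to 12.5% and 2.76% to 4.26%, and the PBS libraries were the shallower ones, at 11252479 and 14691375 counts. The part of any of these in the levels of the sterol genes was not tested, and with 2 against 3 libraries they cannot be told apart from treatment.

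The difference between the responses of the 2 cell types was tested in a joint fit of all 18 libraries over 24470 genes. Of all genes 1 was called (0.00409%), and 945 (3.86%) had an unadjusted p under 0.05. None of the 31 sterol genes was called by edgeR or DESeq2, and 1 had an unadjusted p under 0.05. This was Sqle, whose MPP response was lower than its HSC response by a log2 difference of -0.67 (SE 0.29, adjusted p = 1); over all genes 2.67% had a lower MPP response with an unadjusted p under 0.05. The genes next in order were Stard4, with a difference of -0.42, and Srebf2, with -0.36, both with an adjusted p of 1 by edgeR's quasi-likelihood test. Leaving out 1 library at a time, Stard4 ran from -0.64 (without HSC PBS 4) to -0.26 (without HSC MTP10-HDL 3), and Srebf2 from -0.52 (without HSC PBS 4) to -0.24 (without MPP MTP10-HDL 2). By sign alone, 8 of the 31 were higher with MTP10-HDL in both cell types (Pmvk, Mvd, Ggps1, Ebp, Scap, Mbtps1, Npc2 and Fasn), where 34.1% of the 13593 genes tested in both were. Another 8 were lower in both (Idi1, Fdft1, Lss, Cyp51, Msmo1, Hsd17b7, Insig1 and Srebf2), where 27.4% of all genes were. Without MPP MTP10-HDL 2 the counts were 8 higher in both (32.2% of all genes) and 10 lower in both (27.5%). Pmvk and Mvd left the first list for Npc1 and Scd2, and Hmgcs1, Mvk and Tm7sf2 took the place of Idi1 in the other. Ebp, which was among the 6 genes of smallest p in each cell type, was at 0.65 in HSCs and 0.45 in MPPs.

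None of the neighbouring genes of the pathway was called by edgeR's test in either cell type, where it called none of all genes. Each list held 0 or 1 gene per direction at an unadjusted p under 0.05. Over all genes tested, 8.83% in HSCs and 6.23% in MPPs were at that threshold in either direction. Among 14 tested genes of fatty acid synthesis, 7 were higher in HSCs and 8 in MPPs, with medians of -0.01 and 0.12. Elovl5, an elongase of polyunsaturated fatty acids, was at 109 ± 21 CPM in HSC PBS libraries (SD, n = 7) and 151 ± 11.2 CPM with MTP10-HDL (SD, n = 6), and at 116 ± 3.96 CPM (SD, n = 2) and 181 ± 26.7 CPM (SD, n = 3) in MPPs. Its groups lay apart in both cell types, with log2 fold changes of 0.47 (SE 0.13, adjusted p = 0.350) and 0.63 (SE 0.21, adjusted p = 0.697). In HSCs Acacb, an acetyl-CoA carboxylase, had a log2 fold change of -0.71 (SE 0.34, adjusted p = 0.562). Scd1, the desaturase related to Scd2, had one of -2.17 in MPPs (SE 0.71, adjusted p = 0.679), where it averaged 10.9 ± 11.5 CPM in the 2 PBS libraries and 2.43 ± 0.54 CPM with MTP10-HDL. The PBS SD exceeded its mean.

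Among the 8 genes of liver X receptor signalling and cholesterol efflux, 6 were higher in HSCs, with a median log2 fold change of 0.16, and 4 in MPPs, with a median of -0.10. Abcg1, which exports cholesterol to HDL, was at 76.9 ± 34.5 CPM in HSC PBS libraries (SD, n = 7) and 124 ± 33.0 CPM with MTP10-HDL (SD, n = 6; log2 fold change 0.69, SE 0.26, adjusted p = 0.490). Apoe, an apolipoprotein that carries effluxed lipid, was at 83.9 ± 22.1 CPM in MPP PBS libraries (SD, n = 2) and 48.7 ± 11.7 CPM with MTP10-HDL (SD, n = 3; -0.79, SE 0.28, adjusted p = 0.736). In the other cell type each was less far from 0, with Abcg1 in MPPs at 0.03 (SE 0.23) and Apoe in HSCs at 0.30 (SE 0.50). Of the 14 genes that store or transfer sterols, 9 were higher in HSCs and 5 in MPPs, with medians of 0.09 and -0.03. Soat1, which esterifies cholesterol for storage, was at 75.7 ± 10.2 CPM (SD, n = 7) and 108 ± 35.6 CPM (SD, n = 6) in HSCs (0.52, SE 0.17, adjusted p = 0.409). In the MPP table it stood at 46.5 and 47.0 CPM on average.

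Of the 14 regulators of SREBP and sterol sensing, which include the ubiquitin ligases of the Insig system and NF-Y subunits, 9 were higher in HSCs and 8 in MPPs, with medians of 0.07 and 0.01 and 0 at an unadjusted p under 0.05. Of 14 genes that use isoprenoids for prenylation, dolichol or coenzyme Q, 8 and 10 were higher, with medians of 0.04 and 0.09, again with 0 at that threshold. Over all genes 8.83% in HSCs and 6.23% in MPPs were at that threshold. Of 5 oxysterol enzymes, 3 could be tested in HSCs, with 2 higher, and 2 in MPPs, with 0 higher. Cyp7b1, the oxysterol hydroxylase, was at 9.37 ± 1.89 CPM in MPP PBS libraries (SD, n = 2) and 3.17 ± 0.66 CPM with MTP10-HDL (SD, n = 3). Its log2 fold change was -1.56 (SE 0.39, adjusted p = 0.483 by edgeR's test and 0.0396 by DESeq2).

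Some counts leave room for doubt about their source. The tables hold near copies of Acat2 (Acat3) and Idi1 (Idi2), with 100 and 37 reads over all HSC libraries against 1821 and 152 for the members. How reads with several matches were counted was not given in the sources used here. By RefSeq positions, 9 of the 31 genes overlap another gene, 5 of them a protein-coding one (Fdft1 with Ctsb, Tm7sf2 with Vps51, Srebf1 with Rai1, Mbtps2 with Yy2 and Npc1 with Rmc1). Insig1 and Lss overlap the gene models Gm35223 and 4930483K19Rik, and without a stated strand setting their reads cannot be told apart. Of the 31, 5 averaged under 10 CPM in both groups of HSCs (Mvk, Mvd, Idi1, Fdps and Tm7sf2) and 5 in MPPs (Mvd, Idi1, Fdps, Tm7sf2 and Hsd17b7). Over 13 libraries Idi1, Fdps and Mvd were covered by 152, 230 and 228 reads in HSCs. In MPPs, where libraries were deeper, the SE of the log2 fold change was 0.63 for Idi1 and 0.54 for Fdps, against 0.48 and 0.49 in HSCs.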

How the data were processed

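The authors deposited raw read counts per Ensembl gene in 1 table for each cell type. The submitters' processing notes name CASAVA 1.8.2 and STAR 2.5.2b for HSCs, and STAR 2.7.2a, DESeq2 1.24 and R 3.6.1 for MPPs, on mm10. The counting tool, annotation release, strand setting and treatment of multiply matching reads were not given in the sources used here. Per the labels' protocols the cell types had different library kits, so no level was compared between them. HSC libraries carry the table's numbers; its PBS columns run from 1 to 7 while the labels skip a number, so they were used as a group. The 12 ATAC-seq samples were not used here.

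Separate fits per cell type used edgeR 4.0.16 (R 4.3.3) with trimmed mean of M values scaling, filterByExpr defaults, the quasi-likelihood test and Benjamini-Hochberg adjustment over all genes tested at 0.05. Log2 CPM used a prior count of 2. The difference of the responses was the interaction over 4 group means. DESeq2 1.42.0, limma voom (limma 3.58.1), other scalings and filters, libraries left out, a replicate block and the technical group as a covariate were alternatives. Scripts were tested on simulated data. Members, lists and tests were chosen with earlier results of these data known. All 31 members are accounted for. Given in full, with fold change, SE and adjusted p, were the 6 of smallest p per cell type; named too were 3 for the difference and at most 2 genes per cell type of every other list; Npc2 and the genes compared for spread were picked after their values were seen.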

Additional observations from a re-analysis of the deposited data

Results flagged for a closer look

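Within-group outliers were sought by Dixon's ratio at its 95% critical value in 62 groups of HSC libraries, the 31 genes in each treatment, and 4 groups held one; chance alone gives about 1 in 20 groups. Acat2, a cytosolic acetyl-CoA acetyltransferase, was at 56.6 CPM in PBS 4, where the next PBS library was at 26.5 CPM. Stard4, the sterol carrier, was at 144 CPM in the same library, where the next was at 86.8 CPM. PBS 4 held the highest level of 9 of the 31 genes among the 13 libraries, and the lowest of 3. Thus 12 of the 31 had an extreme level there, as did 26.0% of all genes tested. Srebf1, which encodes SREBP1, was at 66.3 CPM in MTP10-HDL 2, and the next MTP10-HDL library was at 44.2 CPM. Npc2 was at 255 CPM in MTP10-HDL 1, and the next was at 125 CPM. The MPP groups of 2 and 3 libraries were too small for this search.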

How the results depend on the processing

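The count of sterol genes called stayed at 0 under all 23 alternatives in HSCs, 14 in MPPs and 23 for the difference. The 313 values under an alternative of the 16 single-gene results tested that way (7 in HSCs, 6 in MPPs, 3 for the difference) kept their direction and their side of the threshold. Over all 31 genes that was not so: leaving out 1 library at a time, 10 turned sign at least once in HSCs and 18 in MPPs, with 8 turning without MPP MTP10-HDL 2 and 7 without MTP10-HDL 3. The median of the 31 genes ran from -0.04 to 0.13 in HSCs, from -0.07 to 0.02 in MPPs and from -0.24 to -0.01 for the difference. Counts over all genes moved more. In HSCs DESeq2 called 92 and edgeR without a filter 44, and leaving out 1 library gave 0 to 1 (1 without MTP10-HDL 4). In MPPs DESeq2 called 180, library totals alone 2 and no filter 345, and leaving out 1 library gave 0 to 17 (17 without PBS 3). For the difference DESeq2 called 2, library totals alone 2 and no filter 4, and leaving out 1 library gave 0 to 2. At an unadjusted p under 0.05 the HSC count of sterol genes ran from 1 (without MTP10-HDL 2 or PBS 7, or at a mean of at least 10 CPM) to 4 (without PBS 1). The MPP count was 1 with no filter and 0 without MTP10-HDL 3, PBS 2 or PBS 3. The count for the difference was 0 with no filter or without MPP MTP10-HDL 2, MTP10-HDL 3 or PBS 2. Npc2 in HSCs was at 0.07 without MTP10-HDL 1, at 0.59 without PBS 1 and at 0.13 without MTP10-HDL 1 and PBS 2 together, an alternative chosen after seeing the data. The cause of these moves was not tested, beyond the smaller number of libraries or genes that the settings entail.

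Pairing by replicate number was not seen in HSCs. Same-numbered HSC libraries correlated at -0.16 to 0.23 in their deviations from the group means, and 1 of 6 numbers correlated best with its own. The HSC PBS numbers are not tied to the labelled replicates, so pairing of those cannot be judged from this. In MPPs only numbers 2 and 3 occur in both groups. Their correlations are then equal by construction, at -0.11, which is too little to decide on pairing. With the number as a replicate block, 0 genes were called in HSCs and 43 in MPPs, 0 of the 31 in either. The block left 2 of the 31 at an unadjusted p under 0.05 in HSCs and 0 in MPPs; Insig1 was at -0.74 by edgeR. Those MPP libraries without the block, a fit chosen after seeing the data, gave Insig1 the same -0.74. Idi1, with 5 to 32 reads per HSC library, was the sterol gene of lowest summed count there; how much depth widened its interval was not tested.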
